A study of Homo sapiens with 6 samples.

Results

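The genes described were 8 transcription factor genes of the STAT and interferon regulatory factor (IRF) families, STAT2, STAT3, STAT6, IRF1, IRF2, IRF3, IRF7 and IRF9. They were taken by gene symbol from the deposited expression table, where all 8 were found among 17088 listed genes. All 8 also passed the filter on low values, at least 1 FPKM in at least 3 libraries, which left 10909 genes to test. FPKM counts sequenced fragments relative to gene length and to all fragments of the library.

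RNA sequencing set VecRPPH1 cells, labelled as overexpressing the long noncoding RNA RPPH1, against VecNC cells, the labelled controls, with 3 libraries a group. Both were MDA-MB-231, a line from human breast cancer of the triple-negative kind, which lacks estrogen receptor. The labels do not spell out Vec or NC, and they do not say how RPPH1 was introduced, whether the cells were clones or whether each library was a separate culture. The p-values therefore reflect library-to-library spread alone, and that spread may be technical. The comparison asked which transcripts differed with overexpression of RPPH1, the RNA component of the tRNA-trimming enzyme RNase P. The level of RPPH1 itself was not analysed here, which leaves the labels of both groups unchecked by it.

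STAT proteins wait in the cytoplasm until a cytokine receptor and its JAK kinases phosphorylate them, after which they pair and enter the nucleus. IRF proteins bind DNA through a domain with conserved tryptophans and direct the production of, and the response to, interferon. IRF3 and IRF7 act when cytosolic RNA or DNA is sensed, and STAT2 and IRF9 are parts of ISGF3, the complex that carries the type I interferon signal to its target genes. These factors are switched on mainly at the protein level, and some are also induced as transcripts by the signals they transmit.

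The promoters of 3 members are shown, those of IRF1 and IRF9 because they hold a match to the gamma-activated site motif and that of STAT6 because its transcript had the smallest p-value of the 8. RefSeq promoters on GRCh38.p14 were found for STAT2, STAT3, STAT6, IRF1 and IRF9, and IRF2, IRF3 and IRF7 had no entry. The sequences run 5′ to 3′ on the strand of the gene and cover the 250 bases before its RefSeq start, with the matched site in capitals. They lie at chr5:132490774-132491023 on the minus strand for IRF1, chr14:24161015-24161264 on the plus strand for IRF9, and chr12:57110290-57110539 on the minus strand for STAT6.
IRF1: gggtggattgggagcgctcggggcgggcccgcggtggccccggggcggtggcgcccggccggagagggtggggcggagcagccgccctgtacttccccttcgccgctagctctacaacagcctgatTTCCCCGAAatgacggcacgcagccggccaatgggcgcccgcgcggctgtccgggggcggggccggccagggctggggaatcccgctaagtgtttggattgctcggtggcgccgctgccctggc
IRF9: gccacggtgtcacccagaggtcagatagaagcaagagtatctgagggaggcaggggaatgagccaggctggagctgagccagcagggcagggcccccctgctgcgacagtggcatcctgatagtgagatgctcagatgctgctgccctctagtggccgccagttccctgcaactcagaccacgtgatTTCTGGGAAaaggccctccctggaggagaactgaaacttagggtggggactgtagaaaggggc
STAT6: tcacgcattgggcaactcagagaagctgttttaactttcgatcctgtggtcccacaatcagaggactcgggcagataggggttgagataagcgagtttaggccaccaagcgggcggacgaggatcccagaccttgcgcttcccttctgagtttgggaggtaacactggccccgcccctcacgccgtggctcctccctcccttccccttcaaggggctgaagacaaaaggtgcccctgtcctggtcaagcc

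The gamma-activated site, which phosphorylated STAT pairs bind, was searched as TTC and GAA with any 3 bases between them, a motif that reads the same on both strands. Counted from the RefSeq start, the match TTCCCCGAA lay at -124 to -116 in IRF1, and TTCTGGGAA lay at -63 to -55 in IRF9. Such a match was present in 6.57% of 35116 RefSeq promoter windows of the same length. STAT2, STAT3 and STAT6 had no match in this window. RefSeq starts lie inside the GENCODE 29 spans of the genes, so parts of these windows are within the annotated gene. That part was 250 of 250 bases for STAT6, 212 for IRF9, 126 for STAT3, 48 for STAT2 and 25 for IRF1. The IRF9 match lies inside the annotated IRF9 gene, and the IRF1 match upstream of the annotated IRF1 start. The form with any 4 bases between TTC and GAA, which STAT6 prefers, was present in 5.38% of windows and in none of the 5 promoters. The core of the interferon-stimulated response element, searched on both strands as 2 GAAA blocks with any 2 bases between them, was present in 3.02% of windows and in none of the 5.

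Added over all listed genes, recovered fragments came to 17497631 to 18165951 per VecRPPH1 library. For VecNC libraries the same sum was 18097226 to 18704798. In each library this was about 99.4% of the total that the recovery assigned to it. VecNC library 1 stood apart on the first principal component of all tested genes, at -10.9, with the other 5 between -0.11 and 4.40. Counts of limma calls and signs of members that change without it are given both ways. Coefficients of variation, correlations and counts by direction are given with all 6 libraries only. All 8 markers listed for the line were above 1 FPKM, with VIM at 2599 ± 21.9 FPKM in VecRPPH1 and 2699 ± 38.3 FPKM in VecNC cells. These 8, of which VIM gave most of the sum, had 4 higher and 4 lower means in VecRPPH1 cells. They summed to 3766 to 3812 FPKM in VecRPPH1 and 3876 to 3989.9 FPKM in VecNC libraries, which did not overlap. Among them LAMB3, a laminin chain gene, was at 279 ± 13.2 FPKM in VecRPPH1 and 318 ± 3.90 FPKM in VecNC cells and was called by voom (adjusted p 0.0272) but not by limma (adjusted p 0.306). ESR1, the estrogen receptor gene, averaged 0.008 FPKM in VecRPPH1 and 0.00762 FPKM in VecNC cells. Of 8 luminal and epithelial markers listed as absent, 5 reached 1 FPKM, among them KRT8 and KRT18, so that list did not behave as its name says. Of 10 immune and stromal markers 3 reached 1 FPKM, and none was called. CD14 was at 3.23 ± 0.204 FPKM in VecRPPH1 and 2.30 ± 0.241 FPKM in VecNC cells, CD68 at 102.6 ± 0.942 FPKM in VecRPPH1 and 106 ± 2.10 FPKM in VecNC cells, and COL1A1 at 3.76 ± 0.400 FPKM in VecRPPH1 and 3.81 ± 0.245 FPKM in VecNC cells (limma adjusted p 0.306, 0.758 and 0.969). The leukocyte markers PTPRC and CD3E averaged 0.106 and 0.0276 FPKM in VecRPPH1 cells and 0.0487 and 0.0269 FPKM in VecNC cells. The 10 markers, of which CD68 gave most of the sum, summed to 110.2 to 113 FPKM in VecRPPH1 and 112 to 115 FPKM in VecNC libraries. The part of other cells in the results was not tested. In bulk RNA, fewer cells with a transcript and less of it per cell cannot be told apart.

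Levels of the 8 genes spanned about 1 order of magnitude and kept nearly the same order in both groups. IRF3 had the highest mean over the 6 libraries, at 39.9 FPKM, followed by STAT3 at 37.2 and STAT6 at 33.8 FPKM. STAT2, IRF9 and IRF1 came next, at means of 15.5, 15.2 and 14.4 FPKM, then IRF7 at 7.99 and IRF2 at 3.87 FPKM. The ranges over all 6 libraries overlapped between IRF3 and STAT3, between STAT2 and IRF9, and between IRF9 and IRF1. Ranges pooled over both groups therefore do not separate these neighbours. In VecNC libraries alone IRF3, at 39.99 to 41.7 FPKM, lay above STAT3, at 36.7 to 37.6 FPKM, while in VecRPPH1 libraries the ranges overlapped. The other 4 neighbouring pairs were apart over all 6 libraries. STAT3 and STAT6 were so narrowly, since the lowest STAT3 library had 36.5 FPKM and the highest STAT6 library 36.2 FPKM. IRF3 exceeded 84.0% of tested genes in mean FPKM and IRF2 exceeded 20.2%, so the family ranged from upper to lower expression levels of this line.

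**Figure D1:**
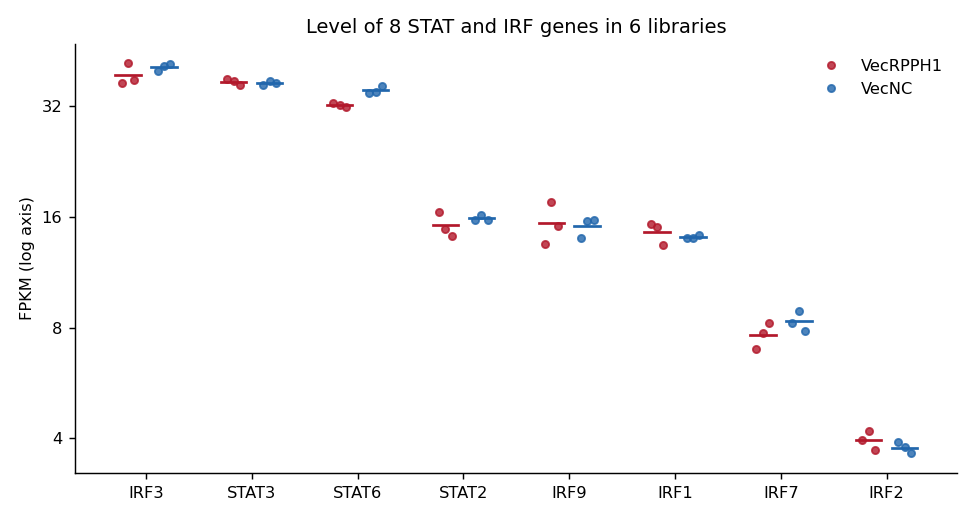
FPKM on a log axis of each of the 8 genes, ordered by mean level, with VecRPPH1 libraries in red left of VecNC libraries in blue; points are libraries and bars are group means of 3. IRF3, STAT3 and STAT6 lie between 31.8 and 41.8 FPKM, and IRF2 lies between 3.64 and 4.19 FPKM.

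Between VecRPPH1 and VecNC cells, none of the 8 genes passed the test. By limma on log2(FPKM + 1), with Benjamini-Hochberg adjustment over all tested genes and a threshold of 0.05, 0 members were called higher (0% of all tested genes were) and 0 lower (0.00917%, or 1 gene). By limma-voom on recovered fragments 0 members were called, where 17 of all tested genes (0.156%) were. STAT6 was the 1 member with an unadjusted limma p under 0.05, beside 7.97% of all tested genes. STAT6 was also the 1 member whose groups did not overlap, a property of 13.9% of all tested genes. Both counts of 1 in 8 are near these background shares. The 8 log2 fold changes split into 4 above and 4 below 0, where 52.3% of all tested genes were above 0, with a median of -0.03, against a median of 0.0046 over all tested genes. An exact permutation test of 3 against 3 libraries cannot give a two-sided p under 0.1.

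STAT6 transmits signals of IL4 and IL13, cytokines of allergic and type 2 immune responses. STAT6 was at 32.6, 32.3 and 31.8 FPKM in VecRPPH1 libraries 1, 2 and 3, against 34.8, 35.04 and 36.2 FPKM in VecNC libraries 1, 2 and 3. All VecRPPH1 libraries lay below all VecNC libraries. The means were 32.2 ± 0.366 FPKM in VecRPPH1 and 35.4 ± 0.752 FPKM in VecNC cells (SD, n = 3 each, as for every ± in the text), a difference in means of -8.82%. The limma log2 fold change was -0.13 with an SE of 0.0385, a 95% interval of -0.22 to -0.04, and an adjusted p of 0.465 (unadjusted 0.00764, place 173 among all tested genes). The exact permutation test gave a p of 0.1, the smallest it can give. Without VecNC library 1 the log2 fold change was -0.14, also not called. STAT6 was not called, and 10.5% of tested genes had a larger absolute fold change. The values rest on 2465 to 2617 fragments in VecRPPH1 libraries and 2805 to 2921 in VecNC libraries. The coefficient of variation was 1.13% among VecRPPH1 libraries, where counting error alone gives 1.98%, and 2.13% among VecNC libraries, where it gives 1.87%. STAT6 occupies chr12:57095408-57132139 on the minus strand (GENCODE 29, GRCh38) and shares ground on the opposite strand with NAB2 and LRP1. LRP1 was at 12.4 ± 0.993 FPKM in VecRPPH1 and 13.2 ± 2.25 FPKM in VecNC cells, and NAB2 at 9.61 ± 0.662 FPKM in VecRPPH1 and 10.04 ± 0.625 FPKM in VecNC cells. The library kit marks strand, but no source used here says whether counting used it, and the part of these neighbours in the STAT6 values was not tested.

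STAT3 carries signals of the IL6 family from the shared receptor chain gp130. It was at 37.95, 37.5 and 36.5 FPKM in VecRPPH1 libraries 1 to 3, against 36.7, 37.6 and 37.04 FPKM in VecNC libraries 1 to 3. The groups overlapped, and both the highest and the lowest library were VecRPPH1. Its means were 37.3 ± 0.738 FPKM in VecRPPH1 and 37.1 ± 0.450 FPKM in VecNC cells, with a log2 fold change of 0.0088, a 95% interval of -0.08 to 0.09 and a limma adjusted p of 0.969. The sign turned without VecRPPH1 library 1, to -0.0032. STAT3 lies at chr17:42313324-42388568 on the minus strand. Of the 8 genes, STAT3 had the narrowest interval and the deepest coverage, 3245 to 3502 fragments a library. The ratio of STAT3 to STAT6 FPKM was 1.17, 1.16 and 1.15 in VecRPPH1 libraries and 1.05, 1.07 and 1.02 in VecNC libraries. That ratio rests on the same STAT6 values and is given with no test.

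STAT2 and IRF9 encode the ISGF3 subunits among the 8. STAT2 was at 16.5, 14.9 and 14.2 FPKM in VecRPPH1 libraries 1 to 3, against 15.7, 16.2 and 15.7 FPKM in VecNC libraries. VecRPPH1 library 1 was the highest of all 6 and the other 2 the lowest, so the groups overlapped. The means were 15.2 ± 1.185 FPKM in VecRPPH1 and 15.9 ± 0.297 FPKM in VecNC cells, a log2 fold change of -0.06 (95% interval -0.19 to 0.06, limma adjusted p 0.81). IRF9, which gives ISGF3 its DNA specificity, was at 13.5, 17.5 and 15.1 FPKM in VecRPPH1 libraries and at 14.002, 15.6 and 15.7 FPKM in VecNC libraries. The lowest and the highest of the 6 libraries were both VecRPPH1. The means were 15.4 ± 2.01 FPKM in VecRPPH1 and 15.1 ± 0.951 FPKM in VecNC cells, a log2 fold change of 0.02 (95% interval -0.17 to 0.21, limma adjusted p 0.968). The sign turned without VecNC library 1, to -0.03, and without VecRPPH1 library 2, to -0.071. The IRF9 coefficient of variation in VecRPPH1 libraries, 13.1%, was the largest of the 8 in either group, where counting error gives 4.51%. The IRF9 to STAT2 ratio of FPKM was 0.821, 1.178 and 1.07 in VecRPPH1 libraries and 0.891, 0.963 and 0.999 in VecNC libraries, with overlapping groups. STAT2 lies at chr12:56341597-56360155 on the minus strand and IRF9 at chr14:24161053-24166565 on the plus strand. In GENCODE 29 the whole IRF9 gene lies within a longer annotated gene on the same strand, AL136295.5, so fragments could have been assigned to either.

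IRF3 and IRF7 are the factors that TBK1 and related kinases activate after RNA or DNA sensing, IRF3 as a constitutive protein and IRF7 as one that interferon induces. IRF3 was at 36.99, 41.8 and 37.8 FPKM in VecRPPH1 libraries 1 to 3, against 39.99, 41.1 and 41.7 FPKM in VecNC libraries. VecRPPH1 libraries 1 and 3 were below all VecNC libraries and library 2 above them all. The means were 38.9 ± 2.59 FPKM in VecRPPH1 and 40.9 ± 0.875 FPKM in VecNC cells, a log2 fold change of -0.07 (95% interval -0.19 to 0.04, limma adjusted p 0.739). IRF7 was at 6.997, 7.75 and 8.22 FPKM in VecRPPH1 libraries and at 8.26, 8.87 and 7.83 FPKM in VecNC libraries. VecRPPH1 library 3 lay within the VecNC range and the other 2 below it. The means were 7.65 ± 0.616 FPKM in VecRPPH1 and 8.32 ± 0.522 FPKM in VecNC cells, a log2 fold change of -0.11 (95% interval -0.26 to 0.04, limma adjusted p 0.708), on 251 to 317 fragments a library. The interval of IRF7 reached furthest below 0 of the 8 and included 0. IRF3 lies at chr19:49659569-49665875 and IRF7 at chr11:612553-615999, both on the minus strand. IRF3 shares 734 bases with BCL2L12 on the opposite strand, and BCL2L12 was at 18.97 ± 0.367 FPKM in VecRPPH1 and 18.6 ± 1.02 FPKM in VecNC cells.

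IRF1 activates genes of antigen presentation and growth arrest, and IRF2 competes with it for the same DNA elements. IRF1 was at 15.3, 15.1 and 13.4 FPKM in VecRPPH1 libraries 1 to 3, against 14.1, 14.002 and 14.3 FPKM in VecNC libraries. The 3 VecNC libraries lay between VecRPPH1 library 3 and the other 2. The means were 14.6 ± 1.04 FPKM in VecRPPH1 and 14.1 ± 0.171 FPKM in VecNC cells, a log2 fold change of 0.04 (95% interval -0.08 to 0.17, limma adjusted p 0.883). IRF2 was at 3.96, 4.19 and 3.73 FPKM in VecRPPH1 libraries and at 3.90, 3.78 and 3.64 FPKM in VecNC libraries. These groups overlapped too, and the means were 3.96 ± 0.230 FPKM in VecRPPH1 and 3.78 ± 0.130 FPKM in VecNC cells, a log2 fold change of 0.05 (95% interval -0.08 to 0.19, limma adjusted p 0.86). The IRF1 to IRF2 ratio of FPKM was 3.69 ± 0.161 in VecRPPH1 and 3.75 ± 0.168 in VecNC cells. IRF1 lies at chr5:132481609-132490798 and IRF2 at chr4:184387713-184474580, both on the minus strand. IRF1 is overlapped on the opposite strand by C5orf56 and AC116366.3 in GENCODE 29.

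**Figure D2:**
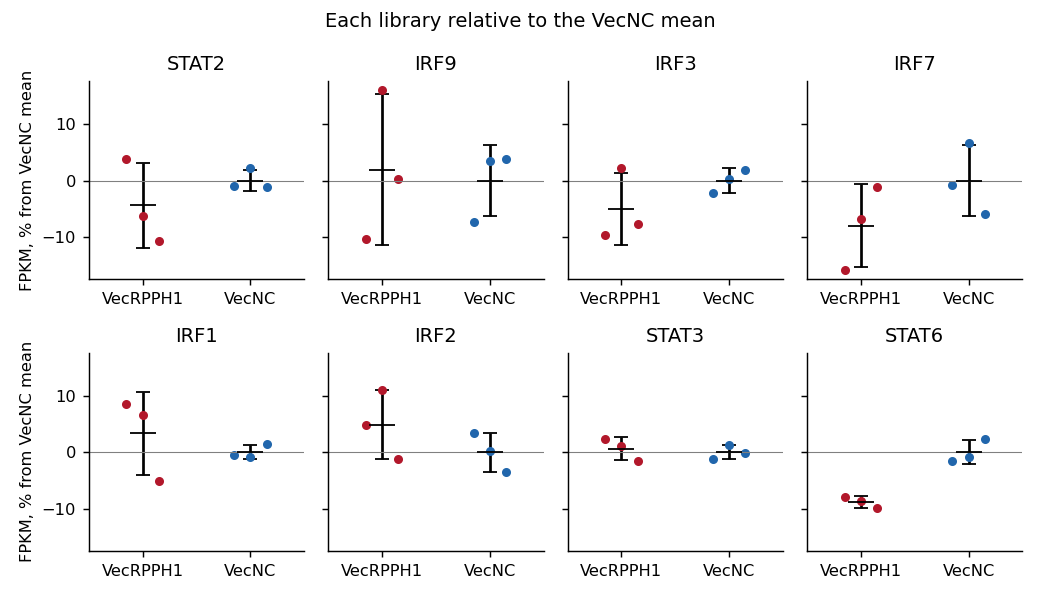
FPKM of each library as percent from the VecNC mean of the same gene, VecRPPH1 left of VecNC; points are libraries 1 to 3 from left to right, and bars are the mean and SD of 3. STAT6 alone has groups that do not overlap, with VecRPPH1 libraries 7.9% to 9.94% below the VecNC mean.

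The spread of the 8 genes was mostly wider among VecRPPH1 than VecNC libraries. The coefficient of variation was larger in VecRPPH1 cells for all members but STAT6, as for STAT2 at 7.81% in VecRPPH1 and 1.87% in VecNC cells and for IRF1 at 7.11% in VecRPPH1 and 1.21% in VecNC cells. This count was not tested, and the members share the same 3 libraries. The share of all tested genes with the larger coefficient in VecRPPH1 cells was not computed. Over all tested genes another measure was taken, chi-square over its degrees of freedom between replicate pairs. It was 2.21 to 3.60 in VecRPPH1 and 3.12 to 8.36 in VecNC libraries. The VecNC pairs that include library 1 gave 8.36 and 6.05. VecNC libraries 2 and 3 gave 3.12, within the VecRPPH1 range. VecRPPH1 library 3 held the lowest value of 4 members and VecRPPH1 library 1 that of 3, while VecRPPH1 libraries 1 and 2 each held the highest value of 3.

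Correlations between members lay on both sides of 0. Over the 28 pairs, Pearson's r of log2(FPKM + 1) across the 6 libraries had a median of 0.0277 and ran from -0.78 for IRF1 with IRF7 to 0.81 for STAT3 with IRF1. Within groups the median was 0.25. STAT2 and IRF9 had an r of -0.47, IRF3 and IRF7 an r of 0.44, and IRF1 and IRF2 an r of 0.67. These describe 6 libraries that share totals and scaling, and carry no test.

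By the same measure, the 3 tested genes most like STAT6 were GDPD5 (r 0.992), UAP1L1 (0.984) and PHLDB1 (0.983). GDPD5 was at 5.51 ± 0.117 FPKM in VecRPPH1 and 6.62 ± 0.208 FPKM in VecNC cells. The 3 most like IRF3, the member with the highest level, were ANTKMT (r 0.997), MFSD10 (0.988) and INPPL1 (0.984). For both members 27 tested genes had an r above 0.95. The named genes are the highest of all tested genes over only 6 libraries. How many unrelated genes would reach such an r was not tested.

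**Figure D3:**
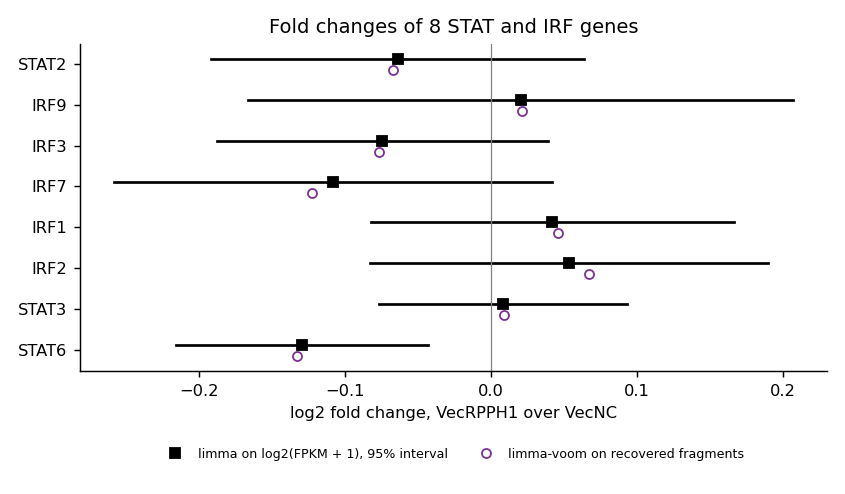
Log2 fold change of VecRPPH1 over VecNC for each of the 8 genes; squares with lines are limma estimates with 95% intervals on log2(FPKM + 1), and open circles are limma-voom estimates from recovered fragments. The STAT6 interval, -0.22 to -0.04, lies below 0 before adjustment over all tested genes, and the other 7 include 0.

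Other STAT and IRF genes, listed with the IRF2-binding corepressors, also gave no call. Of 11 listed, 6 were tested, 3 had higher and 3 lower means, and their log2 fold changes had a median of -0.02. STAT5A was at 6.89 ± 0.476 FPKM in VecRPPH1 and 7.53 ± 0.336 FPKM in VecNC cells, and the corepressor gene IRF2BP2 at 28.2 ± 2.16 FPKM in VecRPPH1 and 25.7 ± 0.662 FPKM in VecNC cells (limma adjusted p 0.678 and 0.627), the 2 with the smallest p. STAT4, IRF4, IRF5 and IRF8, factors of lymphoid or myeloid cells, did not pass the filter, and STAT4 was highest among these 4, at 0.0732 to 0.15 FPKM over the 6 libraries.

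The upstream signals followed the same pattern of no calls. IFNB1, the interferon-beta gene, was listed at 0 FPKM in all 6 libraries, and IFNE and IFNL1 did not pass the filter. Of 8 tested interferon receptor and JAK kinase genes, 6 had higher and 2 lower means and 0 passed (median log2 fold change 0.05). The smallest p-values were those of IL10RB, at 12.9 ± 1.57 FPKM in VecRPPH1 and 11.6 ± 0.464 FPKM in VecNC cells, and the JAK kinase gene TYK2, at 33.04 ± 0.433 FPKM in VecRPPH1 and 34.7 ± 1.07 FPKM in VecNC cells (limma adjusted p 0.692 and 0.701). Among IL6 family ligands and receptors, which feed STAT3, 1 of 10 tested genes had a higher and 9 a lower mean, with 0 called and a median of -0.05. Over all tested genes 52.3% had higher means. Of the 10 only IL6 had an unadjusted limma p under 0.05, as 7.97% of all tested genes had. Whether the list moved as a set was not tested. IL6 was at 38.2 ± 0.895 FPKM in VecRPPH1 and 41.9 ± 0.690 FPKM in VecNC cells, and LIF at 26.5 ± 0.816 FPKM in VecRPPH1 and 27.5 ± 1.15 FPKM in VecNC cells (limma adjusted p 0.465 and 0.827). The receptors that bind IL4 or IL13 numbered 3 tested genes with 0 called. IL4R was at 9.96 ± 0.408 FPKM in VecRPPH1 and 10.4 ± 0.335 FPKM in VecNC cells. IL13RA2 was at 1.37 ± 0.157 FPKM in VecRPPH1 and 1.49 ± 0.407 FPKM in VecNC cells.

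Of 22 tested genes of IRF3 and IRF7 activation, 13 had higher and 9 lower means and 0 were called, at a median of 0.02 on the log2 scale. IFIH1, a sensor of double-stranded RNA, was at 4.49 ± 0.157 FPKM in VecRPPH1 and 3.65 ± 0.3002 FPKM in VecNC cells (limma adjusted p 0.411). The adaptor gene TRAF3 was at 8.24 ± 0.246 FPKM in VecRPPH1 and 8.99 ± 0.118 FPKM in VecNC cells (limma adjusted p 0.617). Inhibitors of STAT signalling had 10 higher and 6 lower means among 16 tested genes, with 0 called and a median of 0.03. PIAS1 was at 6.80 ± 0.233 FPKM in VecRPPH1 and 6.04 ± 0.287 FPKM in VecNC cells, and SOCS2 at 3.42 ± 0.283 FPKM in VecRPPH1 and 3.01 ± 0.0808 FPKM in VecNC cells (limma adjusted p 0.573 and 0.666).

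Downstream, 28 of 36 listed ISGF3 targets were tested. The rest, MX1, MX2, OAS1, IFI44L, RSAD2, EPSTI1, XAF1 and CMPK2, did not pass the filter on low values. Of the 28 tested ISGF3 targets, 24 had higher means in VecRPPH1 cells and 4 had lower ones, where 52.3% of all tested genes had higher means. Their log2 fold changes had a median of 0.08, beside 0.0046 for all tested genes and -0.03 for the 8 factors. None was called by limma, 6 of the 28 had an unadjusted p under 0.05 and were higher, as were 4.29% of all tested genes, and voom called 1, IFIT1. IFIT1 was at 10.4 ± 0.408 FPKM in VecRPPH1 and 7.99 ± 0.223 FPKM in VecNC cells (limma adjusted p 0.071, voom adjusted p 0.0138), and IFIT2 at 20.6 ± 1.02 FPKM in VecRPPH1 and 16.5 ± 1.41 FPKM in VecNC cells (limma adjusted p 0.306). The difference between these targets and the factors themselves was not tested. IRF1 and interferon-gamma targets had 16 higher and 11 lower means among 27, a median of 0.03 and 0 calls, with ICAM1 at 130.5 ± 8.15 FPKM in VecRPPH1 and 162 ± 26.7 FPKM in VecNC cells and the checkpoint ligand gene CD274 at 6.66 ± 0.294 FPKM in VecRPPH1 and 7.47 ± 0.542 FPKM in VecNC cells. STAT3 targets split into 13 higher and 13 lower means, with a median of -0.0071 and 0 limma calls. HIF1A, the hypoxia factor gene, was at 118 ± 1.10 FPKM in VecRPPH1 and 106 ± 4.21 FPKM in VecNC cells, and the collagenase gene MMP1 at 767 ± 14.9 FPKM in VecRPPH1 and 921 ± 27.1 FPKM in VecNC cells (limma adjusted p 0.368 and 0.0507). By voom MMP1 was called (adjusted p 0.000437). Without VecNC library 1, limma called MMP1 and ICAM1 (adjusted p 0.0444 and 0.0407), and with a filter of 5 FPKM it called MMP1 and IFIT1 (adjusted p 0.0317 and 0.0486). STAT6 targets had 3 higher and 3 lower means among 6 tested genes and 0 calls, with GATA3 at 3.30 ± 0.0619 FPKM in VecRPPH1 and 2.80 ± 0.450 FPKM in VecNC cells and TGM2 at 82.3 ± 2.16 FPKM in VecRPPH1 and 77.1 ± 4.47 FPKM in VecNC cells.

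**Figure D4:**
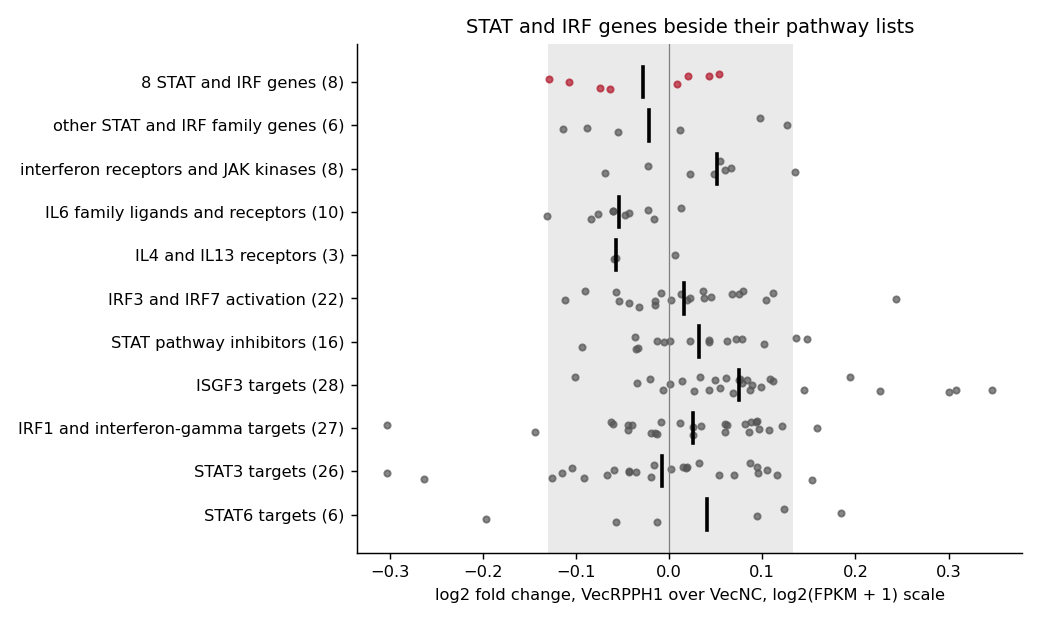
Log2 fold change of VecRPPH1 over VecNC for the tested genes of each list, with the number tested in brackets; points are genes, black bars are medians, and the grey band holds the 5th to 95th percentile of all tested genes, -0.13 to 0.13. The 8 factors in red lie inside the band, and 6 ISGF3 targets lie above it.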

How the data were processed

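RNA of 6 MDA-MB-231 libraries, 3 per group, was sequenced after a stranded TruSeq mRNA preparation, per the labels' protocols. The submitters' processing notes name GRCh38, Cufflinks, HISAT2 and Trimmomatic, without versions, roles or annotation. The authors deposited FPKM values, 1 column per library, and every column was used. FPKM hides depth, so fragments were recovered as whole multiples of each gene's step: with 6 library totals, all values were whole within 0.01 fragments plus a relative 3e-08 in 10909 of 10909 tested genes.

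The test was limma 3.58.1 (R 4.3.3), two-sided, with group as the only term and a trended prior variance. It used log2(FPKM + 1) of genes reaching 1 FPKM in 3 or more libraries, with Benjamini-Hochberg adjustment over all 10909 genes and a threshold of 0.05. Fold changes on this scale understate changes of low genes. On simulated data, fragment recovery was exact for 99.25% of 3872 tested genes. The limma step was run on simulated fragments with the same extra spread for all genes and no outlying library. Its outcome is not given here. Replicates were not duplicates, so each library counted as 1 sample. Chi-square over its degrees of freedom was 2.21 to 3.60 between VecRPPH1 pairs and 3.12 to 8.36 between VecNC pairs. Counting errors given in the text cover counting only.

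The 8 members, the gene lists and the alternatives were chosen with earlier results of these data known. From each list the called genes were named, or otherwise the 2 tested genes with the smallest p. For the members with the smallest p and the highest level, the 3 most alike genes were named. Some genes are not reported here. IFNB1, STAT4 and other genes under the filter, marker genes and genes overlapping a member were named outside this rule, for their role or position and with their values seen. In the text, ± is the SD over 3 libraries. Gene coordinates are from GENCODE 29 on GRCh38, and promoters from RefSeq on GRCh38.p14.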

Additional observations from a re-analysis of the deposited data

How the results depend on the processing

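The 12 alternatives comprised no filter (16293 genes tested), a filter of 5 FPKM in 3 libraries, a pseudocount of 0.1, median-of-ratios rescaling, limma-voom on recovered fragments, the replicate number as a block and leaving out each library. No member was called under any of them. IRF2 fell under the 5 FPKM filter and has 11 values. The direction of STAT2, STAT6, IRF1, IRF2, IRF3 and IRF7 was the same in each alternative that gave a value, but leaving out 1 library moved all of these but STAT6 by over 1.5 times. STAT2 ran from -0.12 to -0.019, IRF1 from 0.0085 to 0.098, IRF2 from 0.02 to 0.087, IRF3 from -0.13 to -0.04 and IRF7 from -0.15 to -0.052. The lowest IRF3 value, without VecRPPH1 replicate 2, had an unadjusted limma p of 0.02 and an adjusted p of 0.555. The STAT6 log2 fold change stayed between -0.14 and -0.11, with an unadjusted p of 0.00279 to 0.036. Leaving out 1 library, STAT3 ran from -0.0032 (without VecRPPH1 replicate 1) to 0.024, and IRF9 from -0.071 (without VecRPPH1 replicate 2, and -0.03 without VecNC replicate 1) to 0.10. The cause was not tested.

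Over all tested genes, limma called 1 gene, against 8 with the 5 FPKM filter, 17 with voom, 0 with no filter and 0 to 7 with 1 library left out (7 without VecNC replicate 1). With the replicate block, 0 genes were called. Same-numbered libraries had correlations of deviations of 0.0566, 0.018 and -0.10, so the numbers were not treated as pairs. Of 142 tested genes in the lists, with the marker lists left out, 0 were called. Of these genes 2 were called with the 5 FPKM filter (IFIT1 and MMP1) and 2 with voom (IFIT1 and MMP1). With 1 library left out, 0 to 2 were called (ICAM1 and MMP1 without VecNC replicate 1). Precision differs between the 8 genes, from an SE of 0.038 on the log2 scale for STAT3 to 0.0835 for IRF9.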
